A study of Mus musculus with 44 samples.

Results

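The spleens of B6C3F1 mice, a hybrid laboratory mouse, were compared at 7 days between the arm titled 2BE and the arm titled vehicle. 2BE is 2-butoxyethanol, a glycol ether solvent known for destroying red blood cells in rodents. The members were the 5 arrays titled as spleen, 2BE and 7 days and the 5 arrays titled as spleen, vehicle and 7 days, which were 10 of the 44 arrays of the series. The treatment label calls the 2BE arm "reduced oxygen" and the vehicle arm "control", so the titles and the treatment labels name the exposure differently. Dose, route, dosing schedule, sex and age were not given in the sources used here, nor whether each array was a separate mouse. The p-values below therefore measure the spread between these samples. Each sample was total RNA from part of a cross-section of the spleen, hybridised to an Affymetrix mouse expression array. For comparison, 8 spleen arrays at 4 h (4 2BE and 4 vehicle) and 10 bone marrow arrays at 7 days (5 2BE and 5 vehicle) of the same strain were used.

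The mouse spleen is both a lymphoid organ and, throughout life, a site of red cell production. When red cells are lost, erythropoietin drives progenitors in the red pulp to expand as dividing erythroblasts, a response called extramedullary or stress erythropoiesis. The stages follow one another: Kit-positive progenitors become colony-forming cells (CFU-E) and proerythroblasts under the transcription factors Gata1 and Klf1, these divide while they build haem, globin and the red cell membrane, and the last cells condense and expel the nucleus and clear their organelles.

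Levels are given as log2(intensity + 1) of the deposited RMA values, and a difference is the 2BE mean minus the vehicle mean on that scale. Changes were tested with limma, a linear model with moderated variances, over 18193 genes with 1 probe set each, and a gene was called at a Benjamini-Hochberg adjusted p under 0.05. Of these genes, 5896 were higher (32.4%) and 5816 were lower (32.0%), 64.4% in all, with a median log2 fold change of 0.051. At least 2-fold changes were far fewer, at 873 called genes higher (4.80%) and 1023 lower (5.62%). All 2BE arrays lay above all vehicle arrays for 20.04% of genes and below them for 26.7%. Among the 11103 genes whose mean level was above 6.80, the median of all probe sets, the median log2 fold change was -0.15. Array medians were 110.0 to 112 in the 2BE arm and 109 to 111 in the vehicle arm, and no pair of arrays held identical values.

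Because the arrays were scaled to a common distribution, each value is a share of the tissue's RNA. In such bulk samples, fewer cells of a type and less RNA per cell cannot be told apart, and a rise of one compartment lowers the share of all others. The spleen label held against its markers: 12 of 12 B cell genes, 12 of 12 T cell genes and 10 of 12 red pulp macrophage genes lay above the probe-set median. Vehicle replicate 1 stood apart, with the lowest value of its arm for the mean of every list from CFU-E to red cell metabolism (8.99 for the CFU-E list, against up to 10.41 on another vehicle array). The counts or medians of the erythroid stage lists are therefore given also without it. Vehicle replicates 2, 4 and 5 carried fat cell transcripts, described with the other tissues below.

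The promoters of the erythropoietin receptor, of the first haem enzyme and of a red cell adhesion protein are shown because they stand for the CFU-E, haem and membrane lists, all of whose measured members were higher. The windows, from RefSeq on GRCm38.p6, run from 250 bases before to 50 bases after the annotated start, 5′ to 3′ on the gene's strand. Capitals mark AGATAA, the core bound by GATA factors, and CCNCNCCC, a core of the sites bound by Klf1 and other Krüppel-like and Sp factors, each on either strand. Epor lay at chr9:21963527-21963826 on the minus strand, Alas2 at chrX:150547167-150547466 on the plus strand and Icam4 at chr9:21029182-21029481 on the plus strand.
Epor: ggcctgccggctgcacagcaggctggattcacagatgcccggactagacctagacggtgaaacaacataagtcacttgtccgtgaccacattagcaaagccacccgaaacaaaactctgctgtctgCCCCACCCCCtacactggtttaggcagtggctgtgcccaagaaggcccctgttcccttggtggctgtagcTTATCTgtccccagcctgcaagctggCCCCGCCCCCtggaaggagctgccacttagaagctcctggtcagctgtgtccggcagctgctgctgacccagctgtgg
Alas2: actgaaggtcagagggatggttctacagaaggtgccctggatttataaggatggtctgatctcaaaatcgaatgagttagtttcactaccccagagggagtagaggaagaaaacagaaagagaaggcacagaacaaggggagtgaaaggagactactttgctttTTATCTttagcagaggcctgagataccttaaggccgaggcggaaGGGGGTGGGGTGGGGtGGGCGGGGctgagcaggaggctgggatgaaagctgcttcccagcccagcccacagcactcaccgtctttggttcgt
Icam4: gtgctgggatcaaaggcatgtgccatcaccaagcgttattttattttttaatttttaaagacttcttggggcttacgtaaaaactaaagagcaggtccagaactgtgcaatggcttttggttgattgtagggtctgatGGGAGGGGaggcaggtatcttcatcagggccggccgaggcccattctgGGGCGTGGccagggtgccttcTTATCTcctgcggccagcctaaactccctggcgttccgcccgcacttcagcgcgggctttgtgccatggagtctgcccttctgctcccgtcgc
AGATAA was found in the windows of 9 of 32 genes with a window from the CFU-E, haem and membrane lists together (28.1%), against 9.54% of the 14452 tested genes with a window. CCNCNCCC was found for 25 of the 32 (78.1%), against 66.5% of tested genes, and both for 7 (21.9%), against 4.30%. Among genes called at least 2-fold higher, 72.1% held CCNCNCCC and 12.1% AGATAA. Among those at least 2-fold lower the shares were 74.9% and 10%, so CCNCNCCC was not particular to genes that rose. The 3 windows printed here all held both, so they are not typical of their lists. Over all 32851 windows of the table, 11.2% held AGATAA and 49.5% held CCNCNCCC. The AGATAA match began 54 bases before the start in Epor, 86 in Alas2 and 43 in Icam4, and shared no letters with a CCNCNCCC match in these 3 windows. Such matches describe letters and not bound sites.

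Genes of the earliest blood cells were mostly lower. Of 10 measured genes of stem and multipotent progenitor cells, 8 were lower, beside 32.0% of all genes, and 1 was higher, beside 32.4%, with a median log2 fold change of -0.82. Meis1, a homeobox factor of stem cells, had 5.85, 6.01, 6.45, 6.38 and 6.58 on the 2BE arrays, against 7.67, 7.36, 7.47, 7.45 and 7.59 on the vehicle arrays (log2 fold change -1.25 ± 0.11 SE, adjusted p = 7.24e-08). The arms did not overlap. Procr, a surface receptor of stem cells and endothelium (-1.23 ± 0.13), Spi1, the myeloid and lymphoid factor PU.1 (-1.20 ± 0.12), and Slamf1 (-1.11 ± 0.15) were also lower. Several of these genes are also expressed by lymphoid, myeloid or endothelial cells, whose lists were lower too, and their part in this result was not tested. Hoxa9 was the member that was higher, by 0.37.

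Among the 13 genes listed for erythroid progenitors, 3 were higher and 5 were lower, and the median was -0.16. These shares were not far from the 32.4% and 32.0% of all genes. Kit, the stem cell factor receptor that marks progenitors, had 8.94, 9.06, 9.21, 8.94 and 9.32 on the 2BE arrays, against 9.37, 9.17, 9.22, 9.34 and 9.19 on the vehicle arrays (log2 fold change -0.16 ± 0.14 SE, adjusted p = 0.325). These ranges overlapped. Myb, which keeps progenitors immature, had 10.57, 10.37, 10.47, 10.47 and 10.67 with 2BE, against 9.75, 9.90, 10.08, 10.34 and 10.001 with vehicle (log2 fold change 0.50 ± 0.24 SE, adjusted p = 0.0728). The arms were separate, but the change passed the threshold only with the 10 arrays fitted alone (limma adjusted p = 0.000817), with array weights, with quantile normalization or with a replicate block. Gata2, the GATA factor that Gata1 replaces as cells mature, was lower by a small amount (log2 fold change -0.32 ± 0.086 SE, adjusted p = 0.00311). It was not called after a further quantile normalization, where the log2 fold change was -0.18 (limma adjusted p = 0.0718).

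Also lower were Nr3c1, the glucocorticoid receptor (-0.61 ± 0.093), and Zfp36l2, an RNA-binding protein that it induces (-0.71 ± 0.15). For both genes other probe sets disagreed, from -0.79 to 0.24 for Nr3c1 and from 0.10 to 0.25 for Zfp36l2. In contrast, Tal1, a factor kept through the erythroid lineage, had 12.37, 12.30, 12.45, 12.40 and 12.18 on the 2BE arrays, against 8.34, 9.80, 9.90, 9.90 and 9.67 on the vehicle arrays (log2 fold change 2.82 ± 0.30 SE, adjusted p = 3.2e-07). Every 2BE array was more than 2 log2 units above every vehicle array. Its partner Lmo2 was higher by 1.20 ± 0.12, and Lyl1 by 0.31 ± 0.077.

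**Figure D1:**
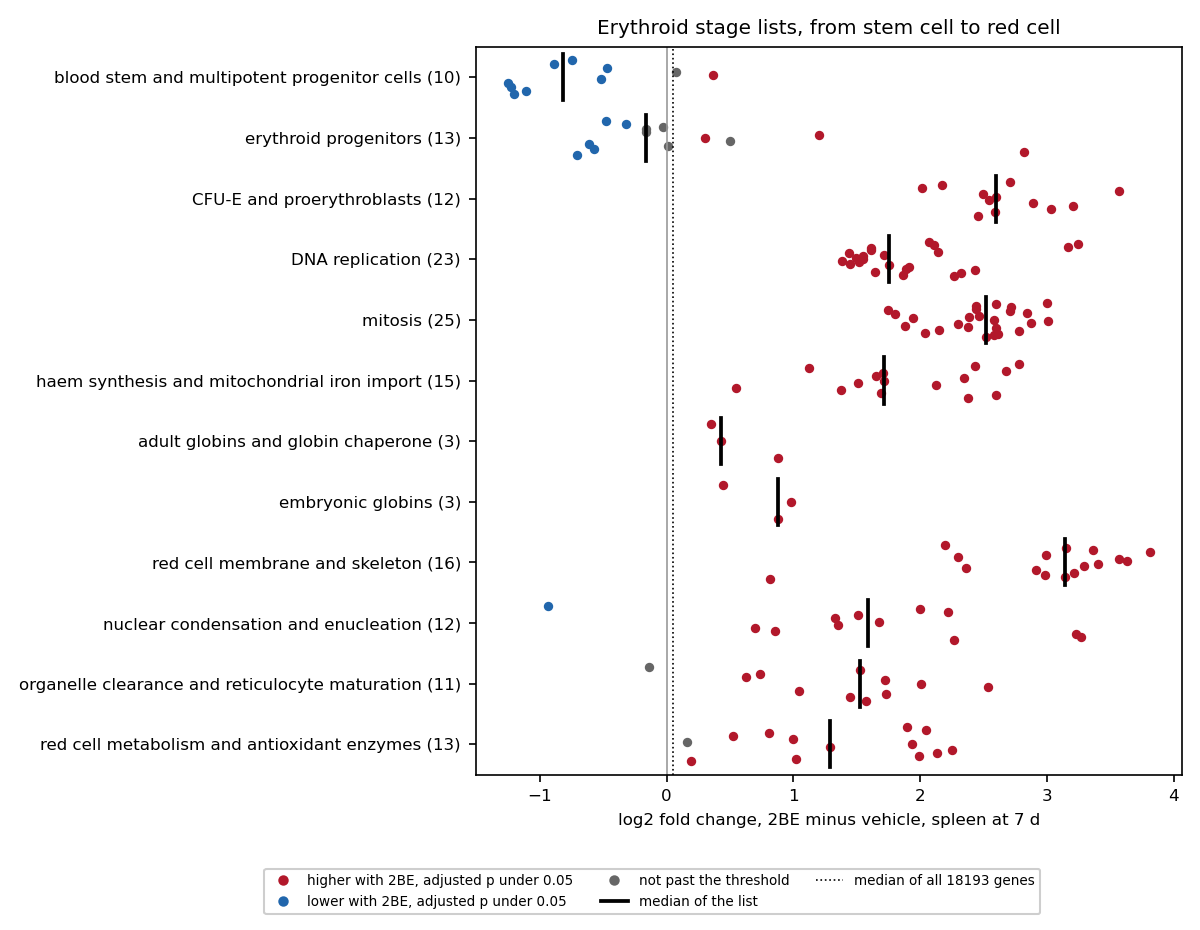
Log2 fold change (2BE minus vehicle, horizontal axis) of each measured gene of 12 lists ordered from stem cell to red cell; each point is 1 gene, black bars are list medians and the dotted line is the median of all genes. The medians pass from -0.82 for stem cell genes to 2.59 for CFU-E genes and 3.14 for membrane genes, with lower medians for the last steps.

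In the order of the stages, the CFU-E and proerythroblast list was the first to move as a whole. Genes of this list can stay expressed in later erythroblasts, so bulk values do not place the change at that step. All 12 genes were higher, all at least 2-fold (4.80% of all genes) and all with separate arms (20.04% of all genes), with log2 fold changes of 2.02 to 3.57 and a median of 2.59. Epor, the erythropoietin receptor, had 11.30, 11.17, 11.21, 11.38 and 10.84 on the 2BE arrays, against 8.22, 8.74, 8.75, 9.08 and 8.65 on the vehicle arrays (log2 fold change 2.49 ± 0.20 SE, adjusted p = 3.48e-08). Gata1, the master factor of the lineage, had 11.55, 11.51, 11.46, 11.61 and 11.19 with 2BE, against 8.28, 9.06, 8.95, 9.25 and 8.79 with vehicle (log2 fold change 2.60 ± 0.27 SE, adjusted p = 2.46e-07). In both genes the lowest 2BE value was well above the highest vehicle value, and the lowest vehicle value was that of replicate 1.

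Klf1, which switches on globin, haem and membrane genes, had 13.27, 13.08, 13.15, 13.25 and 12.88 on the 2BE arrays, against 8.65, 10.16, 10.29, 10.57 and 9.96 on the vehicle arrays (log2 fold change 3.20 ± 0.30 SE, adjusted p = 1.06e-07). Tfrc, the transferrin receptor that brings in iron, had 13.92, 13.89, 14.003, 13.83 and 13.69 with 2BE, against 10.39, 11.33, 11.59, 11.78 and 11.32 with vehicle (log2 fold change 2.59 ± 0.26 SE, adjusted p = 1.58e-07), and its 2 other probe sets gave 3.85 and 3.91. Klf1 was 9.20-fold and Tfrc 6.01-fold higher. The remaining members were Cldn13, a claudin of mouse erythroblasts (3.57 ± 0.34), Nfe2 (3.03 ± 0.28), a factor of globin genes, Hemgn (2.89 ± 0.33), Aqp1 (2.71 ± 0.24), a water channel, Gfi1b (2.54 ± 0.26) and Zfpm1, the cofactor of Gata1 (2.46 ± 0.23), with the carbonic anhydrases Car1 (2.17 ± 0.29) and Car2 (2.02 ± 0.27). Without vehicle replicate 1 all 12 stayed higher, with a median of 2.43.

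Cell division genes were higher as well. All 23 measured DNA replication genes and all 25 mitosis genes were higher, each at least 2-fold and with separate arms. Medians were 1.76 for replication and 2.52 for mitosis. Mki67, the classical proliferation marker, had 13.99, 14.11, 14.03, 13.97 and 13.71 on the 2BE arrays, against 10.51, 11.83, 11.78, 12.01 and 11.79 on the vehicle arrays (log2 fold change 2.38 ± 0.25 SE, adjusted p = 2.45e-07). The 2BE arrays lay close together, and vehicle replicate 1 lay more than 1 unit under the other vehicle arrays.

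In replication the largest changes were in the genes that start S phase: Ccne2, a cyclin of the G1 to S step, had 10.90, 11.09, 10.85, 10.80 and 10.47 with 2BE, against 6.45, 7.83, 7.93, 8.03 and 7.61 with vehicle (log2 fold change 3.25 ± 0.32 SE, adjusted p = 1.7e-07), and Cdc6, which loads the helicase on origins, changed by 3.17 ± 0.32. The 6 helicase subunits themselves, Mcm2 to Mcm7, were between 1.38 (Mcm6) and 1.72 (Mcm2). Mitosis genes were led by Cenpf, a kinetochore protein (3.01 ± 0.26), Anln, the anillin of the cleavage furrow (3.002 ± 0.29), Kif11 (2.88 ± 0.26) and Ccnb2 (2.84 ± 0.26). Without vehicle replicate 1 the medians were 1.70 and 2.33. These genes serve every dividing cell, so their lists do not separate erythroblasts from other dividing cells.

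All 15 measured genes of haem synthesis and mitochondrial iron import were higher, 14 of them at least 2-fold, with a median of 1.71. The enzymes did not rise evenly. Alas2, the erythroid first enzyme, had 14.18, 14.23, 14.17, 14.33 and 13.92 on the 2BE arrays, against 12.28, 13.24, 13.25, 13.13 and 13.32 on the vehicle arrays (log2 fold change 1.12 ± 0.16 SE, adjusted p = 7.03e-06). Cpox, a late enzyme, had 11.98, 11.94, 12.03, 11.79 and 11.51 with 2BE, against 8.43, 9.44, 9.38, 9.53 and 9.09 with vehicle (log2 fold change 2.68 ± 0.25 SE, adjusted p = 9.24e-08). Both had separate arms, and Alas2 had the second smallest difference of the list.

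Alas2 values were near the top of the range of the 10 arrays, 3.30 to 15.31. In the order of the pathway after Alas2, the log2 fold changes were 2.43 for Alad, 2.38 for Uros, 2.59 for Urod, 2.68 for Cpox, 2.35 for Ppox and 1.70 for Fech, the enzyme that inserts iron. Abcb10, a mitochondrial transporter that partners the iron importer, was highest (log2 fold change 2.78 ± 0.22 SE, adjusted p = 2.99e-08). That importer, mitoferrin Slc25a37, changed by 1.51 ± 0.16, Slc11a2, which moves iron out of endosomes, by 1.71 ± 0.14, and Steap3, the endosomal iron reductase, by 1.38 ± 0.11. Snx3, a sorting factor of the transferrin receptor, was smallest (0.55 ± 0.070).

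Globin itself could be followed less well. Of 7 listed adult globin and chaperone genes, 3 had a probe set naming that gene alone, and the brightest globin probe sets name several globin genes at once and were not analysed here. Hbb-b2, an adult beta globin, had 12.80, 13.42, 13.01, 12.97 and 12.67 on the 2BE arrays, against 11.39, 12.34, 12.24, 12.21 and 12.30 on the vehicle arrays (log2 fold change 0.88 ± 0.16 SE, adjusted p = 8.07e-05), and its other probe set gave -0.22. Hba-a1 (0.35 ± 0.072) and Hba-a2 (0.43 ± 0.11) were called higher at levels below the probe-set median. Probes can bind RNA of near-identical globin copies, so these values are uncertain.

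The 3 embryonic globins were called higher as well, at low levels: Hbb-bh1 by 0.98 ± 0.13, Hbb-y by 0.88 ± 0.16 and Hba-x by 0.45 ± 0.086. Of the 3, only Hbb-bh1 had a mean level above the probe-set median, and 2 had separate arms. The mean of the list was 6.54 with 2BE and 5.77 with vehicle. Binding of adult globin RNA to these probe sets was not tested. Hbb-bh1 had 7.37, 7.47, 7.44, 7.60 and 6.85 with 2BE, against 6.02, 6.58, 6.27, 6.63 and 6.32 with vehicle, close to the probe-set median in both arms.

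The red cell membrane list had the highest median of the stages, 3.14, with all 16 measured genes higher and 15 at least 2-fold. Epb42, protein 4.2 of the membrane skeleton, had 11.21, 11.17, 11.06, 11.43 and 10.78 on the 2BE arrays, against 6.33, 7.45, 7.63, 7.75 and 7.43 on the vehicle arrays (log2 fold change 3.81 ± 0.27 SE, adjusted p = 2.49e-08). Kel, the Kell blood group protein, had 12.68, 12.73, 12.64, 12.73 and 12.27 with 2BE, against 7.64, 9.28, 9.37, 9.38 and 9.22 with vehicle (log2 fold change 3.63 ± 0.32 SE, adjusted p = 5.51e-08). Kel was 12.4-fold and Epb42 14.04-fold higher, with vehicle replicate 1 the lowest array for both.

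Icam4, an adhesion protein of the erythroblast island, whose promoter is printed above, had 11.28, 11.20, 11.06, 11.14 and 10.58 on the 2BE arrays, against 6.18, 7.72, 7.92, 8.01 and 7.58 on the vehicle arrays (log2 fold change 3.57 ± 0.32 SE, adjusted p = 7.63e-08). The Rh proteins Rhag (3.40 ± 0.33) and Rhd (3.29 ± 0.34), dematin Dmtn (3.36 ± 0.31), tropomodulin Tmod1 (3.21 ± 0.25), ankyrin Ank1 (3.15 ± 0.24) and beta spectrin Sptb (2.91 ± 0.24) lay close to each other. Slc4a1, the band 3 anion exchanger, had 14.32, 14.42, 14.37, 14.36 and 14.14 with 2BE, against 10.20, 12.42, 12.50, 12.47 and 12.23 with vehicle (log2 fold change 2.36 ± 0.32 SE, adjusted p = 4.53e-06). Its arms were separate, and with vehicle replicate 1 left out its difference was 1.92. For the whole list the median without that array was 2.90.

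Of 12 genes of nuclear condensation and enucleation, 11 were higher and 1 was lower, with a median of 1.59. Trim10, a RING finger protein of terminal erythroid cells, had 13.07, 13.05, 13.12, 13.22 and 12.71 on the 2BE arrays, against 8.48, 10.07, 10.01, 10.21 and 10.08 on the vehicle arrays (log2 fold change 3.26 ± 0.28 SE, adjusted p = 5.04e-08). Tmcc2 changed by 3.23 ± 0.35, Xpo7, an exportin of terminal erythroblasts, by 2.26 ± 0.21, E2f2, which governs the last divisions, by 2.22 ± 0.19, and Foxo3, a factor of late maturation, by 1.51 ± 0.14. Cited2, a transcriptional cofactor, was the lower one (log2 fold change -0.93 ± 0.10 SE, adjusted p = 4.85e-07). Tent5c (0.85 ± 0.13) and Riok3 (0.70 ± 0.068) were called higher by less than 2-fold.

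Organelle clearance genes were higher for 10 of 11, with a median of 1.53. They included Ubac1 (2.53 ± 0.22), Ube2o, the enzyme that removes ribosomes in reticulocytes (1.73 ± 0.19), Ulk1, an autophagy kinase of mitochondrial clearance (1.44 ± 0.14), and Fbxo7 (1.53 ± 0.13). Map1lc3b (0.63 ± 0.067) and Gabarapl2 (0.74 ± 0.072), proteins of the autophagosome, had smaller differences. Alox15, a lipoxygenase of rabbit reticulocytes, had overlapping arms (log2 fold change -0.14 ± 0.36 SE, adjusted p = 0.748).

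Red cell enzymes were higher for 12 of 13 genes, with a median of 1.29. Nt5c3, which clears pyrimidine nucleotides (2.25 ± 0.20), Pklr, the red cell pyruvate kinase (2.13 ± 0.20), Blvrb (2.05 ± 0.19) and Prdx2, the main peroxiredoxin of red cells (1.99 ± 0.19), led the list. Bpgm, which sets 2,3-bisphosphoglycerate, had 13.18, 13.31, 13.44, 13.49 and 13.11 on the 2BE arrays, against 11.88, 12.64, 12.65, 12.55 and 12.78 on the vehicle arrays (log2 fold change 0.81 ± 0.15 SE, adjusted p = 0.000126). Of the antioxidant enzymes Cat changed by 0.52 ± 0.086, Gpx1 by 0.996 ± 0.094 and Sod1 by 0.19 ± 0.079, a call that was lost without any of 8 single arrays (adjusted p up to 0.0823 by limma). Gsr had overlapping arms (log2 fold change 0.16 ± 0.14 SE, adjusted p = 0.335). With vehicle replicate 1 left out, 11 genes of the list were called higher. The medians with that array left out were 1.67 for haem, 0.48 for adult and 0.79 for embryonic globins, 1.49 for enucleation and 1.47 for organelle clearance genes, with the same numbers of calls.

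**Figure D2:**
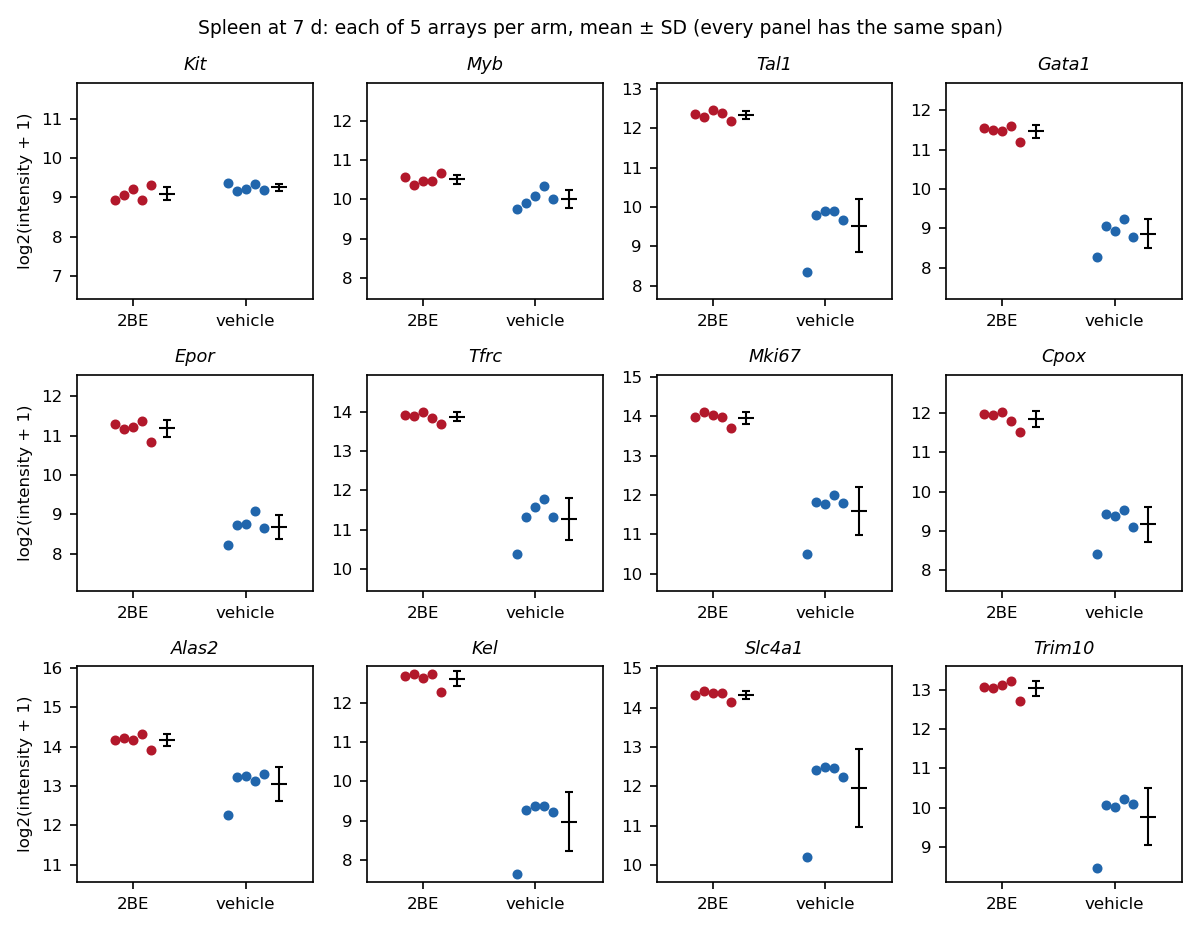
Level of 12 stage genes on each array (log2(intensity + 1), vertical axis), 2BE arrays left of vehicle arrays; the bar beside each arm is the mean with SD of 5 arrays. Kit overlaps between the arms, while Gata1, Epor, Kel and Trim10 are separate, and the lowest vehicle point of most panels is replicate 1.

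Of the 12 largest rises among all genes tested, at a level above 6.80 and with separate arms, 4 were members of these lists. Apol8, an apolipoprotein L, had 11.44, 11.43, 11.43, 11.58 and 10.78 on the 2BE arrays, against 5.57, 7.64, 7.79, 7.88 and 7.74 on the vehicle arrays (log2 fold change 4.01 ± 0.42 SE, adjusted p = 2.47e-07). Sowaha had 9.09, 9.46, 9.45, 9.49 and 8.75 with 2BE, against 4.09, 5.55, 5.51, 5.89 and 5.48 with vehicle (log2 fold change 3.94 ± 0.33 SE, adjusted p = 4.48e-08). Both had separate arms, and the 2 genes were 16.1-fold and 15.4-fold higher. They were followed by Mageb16 (3.85 ± 0.36), Samd11 (3.81 ± 0.31), Epb42, Tspan8 (3.73 ± 0.36), Tlcd4 (3.70 ± 0.39), Sox6, which silences embryonic globin in erythroid cells (3.66 ± 0.39), Kel, Icam4, Cldn13 and Plek2, a protein of erythroblast actin (3.52 ± 0.32). Samd11's other probe set gave 0.99.

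Genes that act on or report erythroid signals followed 2 patterns. Of 13 stress erythropoiesis signals, 11 were lower and 2 higher, beside 32.0% and 32.4% of all genes, with a median of -0.78. The lists of endothelium, stroma and smooth muscle had medians of -0.76, -0.61 and -0.96. The part of such cells in the fall of the signals was not tested. Bmp4, the ligand that expands stress progenitors in the mouse spleen, had 6.99, 6.79, 6.86, 6.85 and 7.08 on the 2BE arrays, against 7.49, 7.38, 7.50, 7.32 and 7.41 on the vehicle arrays (log2 fold change -0.50 ± 0.10 SE, adjusted p = 0.000376). The arms were separate at levels near the probe-set median. Smad5, which carries its signal (-0.84 ± 0.093), Smad1 (-0.90 ± 0.10), the target Id1 (-0.78 ± 0.15), Gas6 (-1.11 ± 0.16), Epas1, the hypoxia factor HIF-2 alpha (-1.10 ± 0.14), and Kitl, stem cell factor (-0.40 ± 0.14), were lower. Kitl was not called without 2BE replicate 2 (limma adjusted p = 0.0539). The hedgehog ligands Ihh (0.39 ± 0.094) and Shh (0.26 ± 0.088) were called higher at low levels, Shh not without vehicle replicate 5 (limma adjusted p = 0.0545).

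Genes induced by the erythropoietin receptor were mixed, 5 higher and 2 lower of 10, beside 32.4% and 32.0% of all genes, with a median of 0.20. Bcl2l1, which encodes the survival protein Bcl-xL, had 11.50, 11.65, 11.99, 11.83 and 11.41 with 2BE, against 9.70, 10.65, 10.46, 10.53 and 10.65 with vehicle (log2 fold change 1.28 ± 0.15 SE, adjusted p = 1.01e-06). Pim1 changed by 1.10 ± 0.11 and Cish, a feedback inhibitor, by 0.79 ± 0.12, both with separate arms. Of the other inhibitors listed, Socs2 was lower (-0.48 ± 0.14) and Socs3 was not called (log2 fold change -0.45 ± 0.34 SE, adjusted p = 0.254), except without 2BE replicate 5, where it was lower (limma adjusted p = 0.0428). Osm, oncostatin M, was not called (log2 fold change -0.0071 ± 0.070 SE, adjusted p = 0.935).

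Recycling of haem and iron, the work of red pulp macrophages, had 5 of 13 genes higher and 5 lower, shares not far from the 32.4% and 32.0% of all genes. Hmox1, the haem oxygenase, had 11.40, 11.10, 10.91, 10.78 and 10.80 on the 2BE arrays, against 11.79, 11.23, 11.59, 11.10 and 11.10 on the vehicle arrays (log2 fold change -0.37 ± 0.34 SE, adjusted p = 0.353). These arms overlapped, and with the 10 arrays fitted alone Hmox1 was called lower (limma adjusted p = 0.0468). Nqo1, an oxidative stress enzyme, was higher (log2 fold change 1.88 ± 0.18 SE, adjusted p = 1.3e-07), as were Slc48a1, a haem transporter (1.05 ± 0.088), and ferritin heavy chain Fth1 (0.50 ± 0.051). Cd163, the haemoglobin receptor, was lower (-0.54 ± 0.19), though not called without 2BE replicate 1 or without vehicle replicate 3 (limma adjusted p = 0.0652 and 0.0503), and ferroportin Slc40a1 was lower on 1 probe set (-0.29 ± 0.077) and at 0.052 on the other.

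Most other compartments of the spleen were lower, by unequal amounts, where 32.0% of all genes were called lower. B cell genes had the lowest median of the cell lists resident in spleen, -1.54, and all 12 of 12 were lower by at least 2-fold (5.62% of all genes) with separate arms (26.7% of all genes). Ms4a1, the CD20 antigen, had 11.52, 10.61, 11.71, 11.44 and 12.12 on the 2BE arrays, against 13.32, 12.99, 13.09, 13.02 and 13.09 on the vehicle arrays (log2 fold change -1.63 ± 0.22 SE, adjusted p = 4.44e-06). Cd79a, a chain of the B cell receptor complex, had 11.25, 10.54, 11.38, 11.18 and 11.83 with 2BE, against 13.11, 13.01, 13.07, 12.94 and 13.13 with vehicle (log2 fold change -1.82 ± 0.23 SE, adjusted p = 1.99e-06). The 2BE arrays were spread over more than 1 log2 unit, replicate 2 lowest and replicate 5 highest for the mean of the list, while the vehicle arrays lay close together.

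Within the B lineage, follicular genes had a median of -1.47 (5 of 5 lower) and marginal zone genes -1.35 (8 of 8 lower). Fcer2a, the CD23 antigen of follicular cells, changed by -1.63 ± 0.30, and Cr2, the complement receptor highest on marginal zone cells, by -1.65 ± 0.24. Germinal centre genes were lower for 4 of 6, among them Bcl6 (-1.07 ± 0.15) and Rgs13 (-1.98 ± 0.30). All 10 plasma cell genes were lower with a median of -1.11. Mzb1, which helps antibody assembly, changed by -1.45 ± 0.11 and Jchain, the joining chain, by -0.80 ± 0.090. B cell precursor genes had a median of -0.0087, with Vpreb3 (-1.33 ± 0.13) and Il7r (-1.24 ± 0.23), both also in mature lymphocytes, the called members. The MHC class II genes, which B cells and dendritic cells share, were lower for all 9, with a median of -1.34.

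T cell genes were lower for all 12, 9 by at least 2-fold, with a median of -1.35. Cd3g had 8.58, 7.10, 8.79, 8.59 and 9.05 on the 2BE arrays, against 10.44, 10.41, 10.18, 10.14 and 10.24 on the vehicle arrays (log2 fold change -1.86 ± 0.27 SE, adjusted p = 7.68e-06). Cd3e, another chain of the same receptor, had 9.57, 8.96, 9.61, 9.75 and 9.68 with 2BE, against 10.54, 10.56, 10.27, 10.34 and 10.37 with vehicle (log2 fold change -0.90 ± 0.14 SE, adjusted p = 2.87e-05). Arms were separate for both. Cd28, the costimulatory receptor, changed by -1.87 ± 0.23 and Cd4 by -0.95 ± 0.12. Cd4 had the largest fall of the 6 CD4 and regulatory T cell genes, whose median was -0.50. Of these 6, 4 were lower and 1 was higher, none by 2-fold, and 2 lay above the probe-set median.

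Cd8b1 was lower (log2 fold change -1.23 ± 0.21 SE, adjusted p = 5.74e-05), whereas the probe set used for Cd8a was higher (log2 fold change 0.49 ± 0.11 SE, adjusted p = 0.00101) and its 4 other probe sets gave -1.14 to -0.037, so Cd8a gives no settled direction. NK cell genes were lower for 8 of 10, with a median of -1.06. The largest differences were in Klra8, a Ly49 receptor (-2.25 ± 0.27), Gzma, granzyme A (-1.90 ± 0.18), and Tbx21, the factor T-bet (-1.73 ± 0.17). Clec2d, a ligand of NK receptors, had the largest fall of the genes named by rule. Clec2d had 7.55, 7.43, 7.77, 7.78 and 7.69 on the 2BE arrays, against 10.54, 10.17, 10.28, 9.59 and 10.32 on the vehicle arrays (log2 fold change -2.54 ± 0.19 SE, adjusted p = 2.76e-08). It was 5.81-fold lower with separate arms.

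After these, the largest falls were in Igkv6-14 (-2.13 ± 0.25) and Iglv1 (-1.80 ± 0.18), which are antibody light chain segments, Igfbp5 (-1.85 ± 0.44), Ubd (-1.80 ± 0.18), Nfkbie (-1.78 ± 0.22) and Ly6d, a surface protein of B cells (-1.77 ± 0.20). Antibody segments share sequence with their relatives, and Igfbp5's other probe set gave 0.071. Without vehicle replicates 2, 4 and 5, the arrays with fat cell transcripts, Igfbp5 was not called (-1.13, limma adjusted p = 0.101).

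Myeloid compartments split. Conventional dendritic cell genes were lower for 7 of 9 (median -0.86), led by Itgax, the CD11c antigen (-1.35 ± 0.17), and plasmacytoid ones for 4 of 6 (median -0.89), led by Tcf4 (-1.35 ± 0.15). Monocyte genes were lower for 6 of 8 (median -0.71), with Ccr2, the exit receptor of monocytes, at -1.05 ± 0.16 and Csf1r at -0.56 ± 0.090.

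Genes of red pulp macrophages, the cells around which erythroblasts mature, had a median nearer to 0 than those of lymphocytes. Of their 12 genes, 7 were lower, none by 2-fold, and the median was -0.31. Spic, the factor that makes red pulp macrophages, had 10.03, 9.997, 10.11, 10.04 and 10.28 on the 2BE arrays, against 10.45, 10.04, 10.30, 10.06 and 10.19 on the vehicle arrays (log2 fold change -0.12 ± 0.11 SE, adjusted p = 0.366). Vcam1, an adhesion molecule of the erythroblast island, had 12.57, 12.83, 12.96, 12.77 and 13.11 with 2BE, against 13.20, 12.94, 13.21, 13.03 and 12.94 with vehicle (log2 fold change -0.21 ± 0.10 SE, adjusted p = 0.0761). Both genes overlapped between the arms, and without 2BE replicate 5 Vcam1 was called lower (limma adjusted p = 0.0212). Complement C1qa (-0.39 ± 0.082), the receptor Mertk, which engulfs dying cells (-0.62 ± 0.13), and Treml4 (-0.63 ± 0.15) were lower.

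Macrophages at the marginal zone differed by gene. Cd209b, the lectin SIGN-R1 of marginal zone macrophages, had 6.84, 7.16, 7.17, 7.21 and 6.43 on the 2BE arrays, against 8.76, 8.39, 8.41, 8.47 and 8.91 on the vehicle arrays (log2 fold change -1.63 ± 0.16 SE, adjusted p = 1.23e-07). Marco, their scavenger receptor, changed by -1.34 ± 0.17. Cd5l, which other splenic macrophages make too, overlapped (log2 fold change -0.030 ± 0.27 SE, adjusted p = 0.927), and Siglec1, of the metallophilic macrophages, was 0.16 on the probe set used (a call that was lost without any of 7 single arrays, with limma adjusted p up to 0.154) and -0.24 and -0.22 on the others.

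Neutrophil genes had no call: 0 of 10 by limma, 0 at an unadjusted p under 0.05, and 1 lower gene when arrays were weighted by quality. S100a8, a calprotectin chain, had 11.71, 12.18, 12.61, 11.83 and 12.65 on the 2BE arrays, against 12.87, 12.10, 12.60, 12.38 and 12.27 on the vehicle arrays (log2 fold change -0.25 ± 0.25 SE, adjusted p = 0.384). The arms overlapped. Genes of granulocyte progenitors stood above vehicle: Mpo, myeloperoxidase, had 8.68, 9.06, 9.10, 8.86 and 8.89 with 2BE, against 8.17, 7.78, 8.23, 8.36 and 7.89 with vehicle (log2 fold change 0.83 ± 0.56 SE, adjusted p = 0.199). For 5 of 6 members, Mpo, Elane (0.62 ± 0.48), Prtn3 (0.66 ± 0.59), Ctsg (0.88 ± 0.67) and Ms4a3 (0.54 ± 0.58), all 2BE arrays lay above all vehicle arrays, yet none was called with the spread shared with the 4 h arrays; fitted on the 10 arrays alone, 5 were called. Gfi1 was lower (log2 fold change -0.82 ± 0.26 SE, adjusted p = 0.0111). Genes of mast cells and basophils were low in both arms, with 0 of 8 called and 0 at an unadjusted p under 0.05 by limma.

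Megakaryocytes, which share progenitors with red cells, did not follow the erythroid genes. Of 14 megakaryocyte and platelet genes, 11 were lower and 0 higher, with a median of -1.07. Pf4, platelet factor 4, had 10.02, 10.08, 10.57, 10.32 and 10.34 on the 2BE arrays, against 11.69, 11.26, 11.75, 11.60 and 11.72 on the vehicle arrays (log2 fold change -1.34 ± 0.19 SE, adjusted p = 8.25e-06). Arms were separate. Ppbp (-1.54 ± 0.16), Mmrn1 (-1.54 ± 0.21) and Gp1bb (-1.51 ± 0.25) fell most, and Gp9 (log2 fold change 0.16 ± 0.14 SE, adjusted p = 0.325) and Gp6 (log2 fold change -0.022 ± 0.10 SE, adjusted p = 0.86) were not called.

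Endothelial genes were lower for 14 of 16 (median -0.76), including Pecam1 (-1.18 ± 0.12), Kdr, a receptor of vascular endothelial growth factor (-1.14 ± 0.13), and Cdh5 (-0.97 ± 0.12, with 0.040 on its other probe set). Stromal genes were lower for 10 of 14 (median -0.61). They included Cxcl13, the chemokine that draws B cells into follicles (-1.03 ± 0.22), Cxcl12 (-1.05 ± 0.15) and Pdgfrb (-1.22 ± 0.14). Smooth muscle genes were lower for 4 of 6 (median -0.96), such as Tagln (-1.14 ± 0.17).

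**Figure D3:**
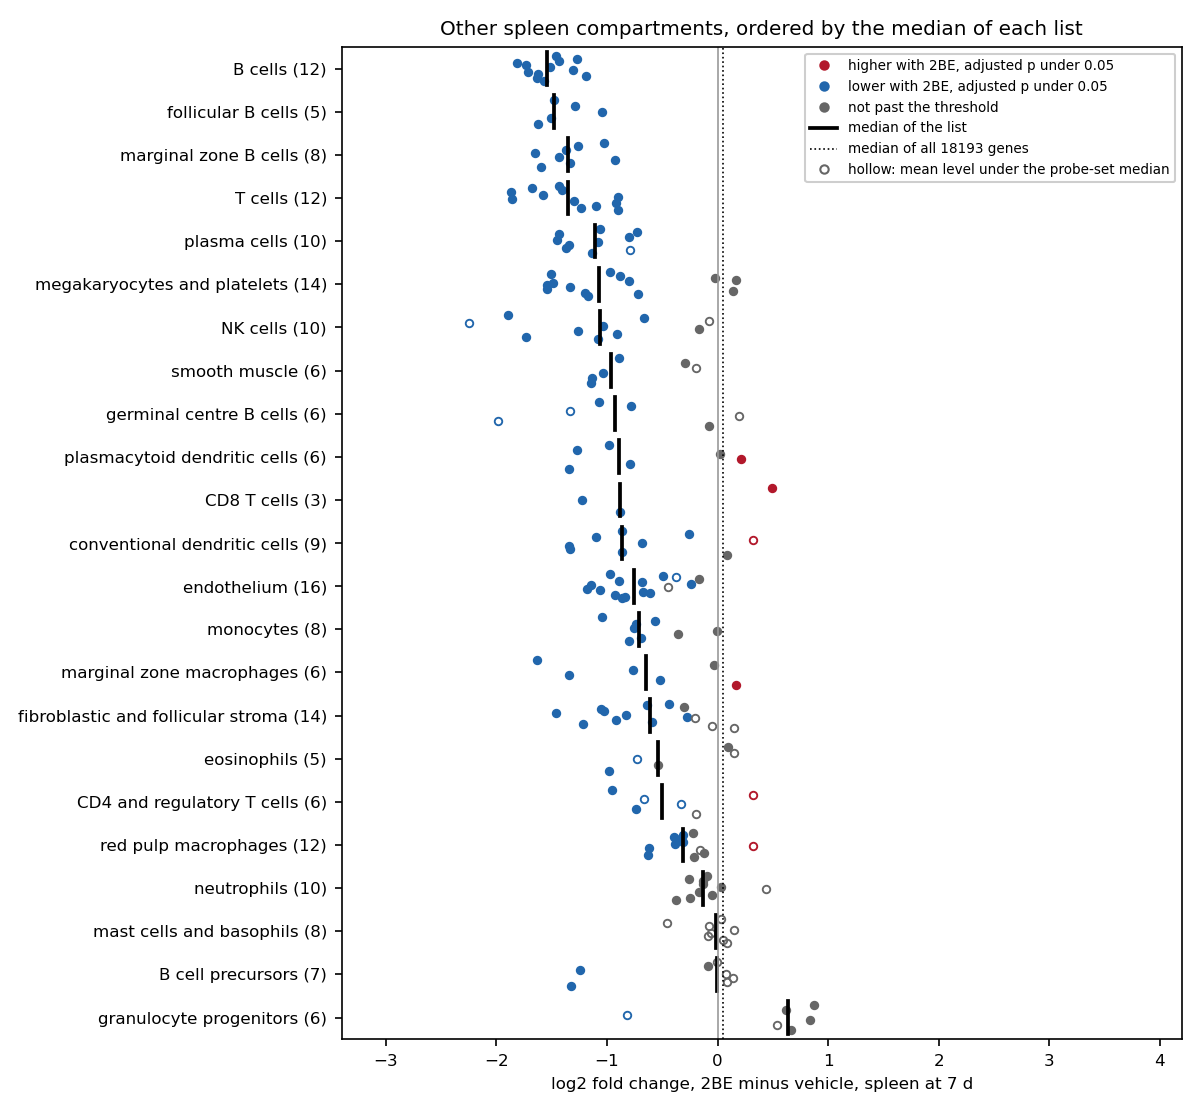
Log2 fold change (2BE minus vehicle, horizontal axis) of each measured gene of 23 lists of other spleen compartments, ordered by list median; hollow points have a mean level under the probe-set median. The medians run from -1.54 for B cells to -0.31 for red pulp macrophages, -0.13 for neutrophils and 0.64 for granulocyte progenitors.

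Tissue bordering the spleen differed between arrays. Adipoq, a hormone of fat cells, had 4.29, 4.51, 4.18, 4.27 and 4.18 on the 2BE arrays, against 4.15, 10.87, 4.25, 9.05 and 8.80 on the vehicle arrays, and Fabp4, a fatty acid carrier, had 7.41, 7.81, 7.62, 7.38 and 7.75 with 2BE, against 7.80, 12.38, 8.34, 10.70 and 10.37 with vehicle. Vehicle replicates 2, 4 and 5 were high for Adipoq, and the remaining vehicle arrays were like the 2BE arrays. The adipocyte list had 2 of 4 genes called lower, and 0 without those 3 arrays, where a vehicle arm of 2 arrays is left. Without the same 3 arrays the medians were -1.60 for B cells, -1.35 for T cells, -0.64 for stroma and 2.87 for CFU-E genes. Vehicle replicate 1, the lowest of its arm for CFU-E genes (8.99), is 1 of the 2 vehicle arrays left, so the CFU-E median leans on it. Pancreatic acinar genes were called higher for 4 of 5, beside 32.4% of all genes, with a median of 0.39. They were led by Cela1 (1.17 ± 0.13) and Cela2a (0.46 ± 0.067). Only 2 of the 5 lay above the probe-set median, and 2 had separate arms. Hepatocyte genes, of which 1 of 5 lay above that median, were called higher for 2 of 5. The part of bordering tissue in the other results was not tested.

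To compare other compartments with B cells, each gene's level was set against Ms4a1 on the same array and the differences were compared between the arms by an exact two-sided permutation test over arrays, for which the smallest possible p is 0.00794. Of 19 genes compared, 13 differed after Benjamini-Hochberg adjustment, and each of the 13 was higher relative to Ms4a1 with 2BE than with vehicle. This common direction depends on the reference, which was chosen after the data were seen. Ms4a1 itself changed by -1.63, so a gene that barely changed shifts up by about that amount. B cell genes ranged from -1.82 to -1.19 (median -1.54), and with another of them the shifts could differ in size or direction. Relative to Ms4a1, Cd3e shifted by 0.72 (exact permutation, adjusted p = 0.0274), Cd4 by 0.67 (adjusted p = 0.0274) and Jchain by 0.83 (adjusted p = 0.0215). These 3 genes, of T cells and plasma cells, were lower with 2BE in the fit and fell less than Ms4a1. They do not speak for their whole lists. Cd3e had the smallest fall of the 12 T cell genes, whose median was -1.35. Cd3g (-1.86) and Cd28 (-1.87) fell by more than Ms4a1, a difference that was not tested. Jchain fell by less than the plasma cell median of -1.11.

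Larger shifts were found for Spic, 1.51 (exact permutation, adjusted p = 0.0215), S100a8, 1.38 (adjusted p = 0.0215), and Mpo, 2.46 (adjusted p = 0.0215). For these 3 genes no array of one arm overlapped the other. Cdh5 (0.65), Cxcl13 (0.60), Acta2 (0.74), Itgax (0.28), Cpa3 (1.16), Siglec1 (1.79) and Cd8a (2.11) also differed, the last 2 on probe sets that others of the gene contradict (Cd8a shifted by 0.63 on its brightest probe set of these 10 arrays). Itgax, Cdh5 and Acta2 were not past the threshold when certain single vehicle arrays were left out (replicates 1, 2 and 4 for each of them, replicate 5 also for Itgax and Acta2, and replicate 3 also for Itgax), where the smallest possible p is 0.0159 and 10 to 12 of the 19 genes differed. With the brightest probe sets of these 10 arrays 11 genes differed, and Cxcl13 (0.27, exact permutation, adjusted p = 0.0754) and Itgax (adjusted p = 0.0503) missed the threshold. Cpa3, of mast cells, lay below the probe-set median in both arms (means of 5.67 with 2BE and 6.14 with vehicle), where a fall is hard to measure, so its shift mainly restates that of Ms4a1.

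The other 6 genes did not differ from Ms4a1 in this test. Cr2 shifted by -0.022 and Fcer2a by -0.00065, and in both the 2BE and vehicle differences overlapped. Cd209b shifted by -0.0032, but its 2BE arrays were spread widely, with differences of -5.69 to -3.45. Ncr1 (0.36, adjusted p = 0.201), Pf4 (0.29, adjusted p = 0.273) and Siglech (0.84, adjusted p = 0.0539) missed the threshold by exact permutation, which does not show that they fell as much.

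**Figure D4:**
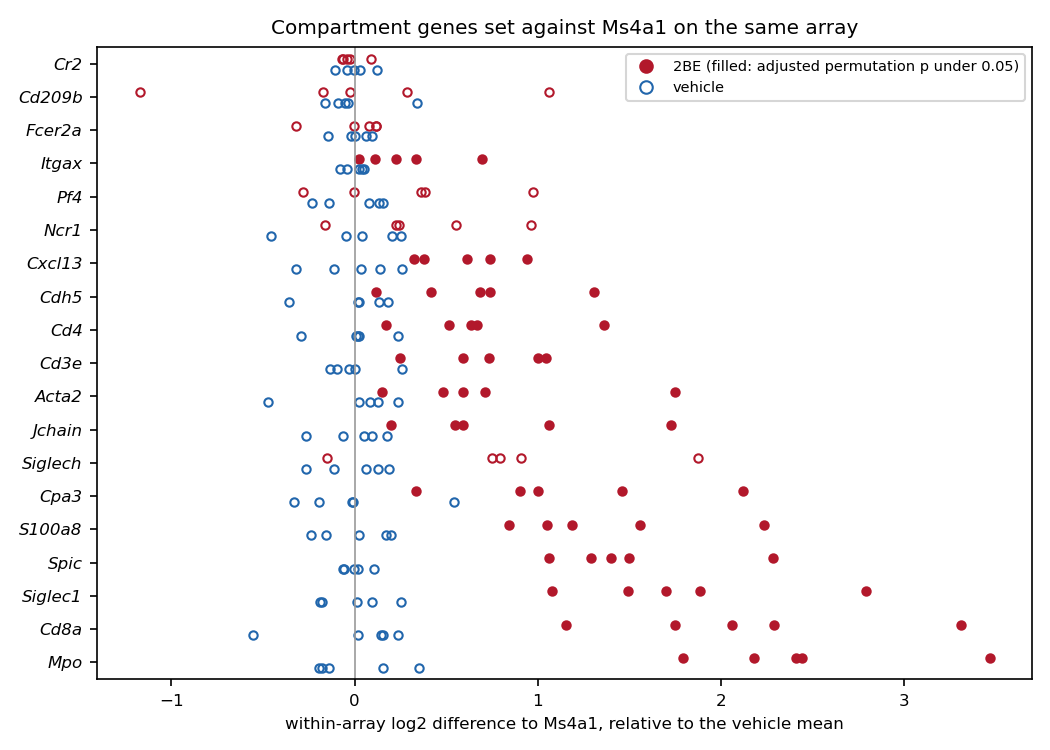
Level of 19 compartment genes minus the level of Ms4a1 on the same array (log2, horizontal axis), with the vehicle mean of each gene set to 0; red points are the 5 2BE arrays, filled where the adjusted permutation p was under 0.05, and blue circles the 5 vehicle arrays. Cr2 and Fcer2a stay around 0, and Spic, S100a8 and Mpo lie wholly to the right of their vehicle arrays.

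Programmes that many cell types share were described by the same counts, beside 32.4% of all genes higher and 32.0% lower. Of 19 hypoxia target and glycolysis genes, 14 were lower and 0 higher, with a median of -0.55. Slc2a1, the glucose carrier, had 8.84, 8.42, 9.18, 9.18 and 9.33 on the 2BE arrays, against 10.16, 10.06, 9.97, 10.06 and 10.11 on the vehicle arrays (log2 fold change -1.08 ± 0.13 SE, adjusted p = 1.58e-06). Arms were separate. Pkm (-1.29 ± 0.14) and Vegfa (-0.88 ± 0.14) were lower too.

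Interferon response genes were higher for 3 and lower for 7 of 15, beside 32.4% and 32.0% of all genes. Rsad2, the antiviral protein viperin (log2 fold change 1.47 ± 0.20 SE, adjusted p = 5.49e-06), and Usp18 (1.07 ± 0.22) were higher, while Cxcl10 (log2 fold change -1.53 ± 0.32 SE, adjusted p = 0.000481) and Gbp2 (-1.40 ± 0.18) were lower. Of 12 p53 targets, 4 were higher and 4 were lower, with a median of -0.063, shares close to the 32.4% and 32.0% of all genes. The largest changes were in Gadd45a, a growth arrest gene, which was higher (log2 fold change 2.48 ± 0.21 SE, adjusted p = 4.85e-08), and Pmaip1, the death protein Noxa, which was lower (-1.51 ± 0.18). Inflammatory cytokine genes had 0 higher and 3 lower calls of 14, both smaller shares than those of all genes. The lower ones were Icam1 (-1.11 ± 0.19), Nfkbia (-0.93 ± 0.13) and Tnfaip3 (-0.89 ± 0.16).

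Ribosomal protein genes had a median of -0.15, with 22 of 45 lower and 1 higher, beside 32.0% and 32.4% of all genes. Proteasome subunits had a median of 0.19, with 19 of 39 higher and 6 lower, beside 32.4% and 32.0% of all genes. The falls there were led by the immunoproteasome subunits Psmb8 (-1.60 ± 0.14), Psmb9 (-1.50 ± 0.13) and Psmb10 (-1.21 ± 0.11), which immune cells use. Respiratory chain genes had a median of 0.091 (25 higher and 13 lower of 78, beside 32.4% and 32.0% of all genes).

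The same 2BE against vehicle comparison was made in the spleen at 4 h and in the bone marrow at 7 days. At 4 h in the spleen 5.16% of genes were called, and at 7 days in the marrow 12.8%. A difference between responses was tested as the 2BE minus vehicle change at 7 days in the spleen minus the same change in the other set, which share no arrays. Array medians were 87.0 to 89.2 in the 4 h spleens and 86.2 to 89.6 in the marrows, lower than in the 7-day spleens, so only changes and no levels were compared. The size of a log2 change also depends on the vehicle level from which it starts, and its part in these differences was not tested. Whether spleen and marrow arrays came from the same mice was not given in the sources used here, and the fit took them as independent.

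The response of the spleen differed between 7 days and 4 h for 51.3% of genes, 25.6% higher and 25.6% lower. All 12 CFU-E, 23 replication, 25 mitosis, 15 haem and 16 membrane genes were among the higher ones. Their medians at 4 h were 0.14, 0.24, 0.15, 0.079 and 0.034 in that order. By limma 0 of these 91 genes were called at 4 h, beside 3.31% of all genes called higher and 1.85% lower, and 4 had an unadjusted p under 0.05. Besides Epb42, the largest differences were in Apol8 (4.38), Apol11b (4.10), Mageb16 (3.91) and Samd11 (3.83).

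In the other direction stood genes that were higher at 4 h and lower at 7 days. Egr1, an immediate early factor, changed by -1.56 at 7 days and 2.82 at 4 h (difference -4.38 ± 0.30 SE, limma adjusted p = 1.61e-08). Akap12 changed by -1.11 and 2.68, Ccn2, connective tissue growth factor, by -1.13 and 2.61, Phlda1 by -1.03 and 2.58, and Sdc4 by -0.99 and 2.28, in the order 7 days and 4 h. Of 14 inflammatory genes, 11 were called higher at 4 h, beside 3.31% of all genes. The difference was towards lower at 7 days for 12, beside 25.6% of all genes. At 7 days itself only 3 of the 14 were called lower, and the list median was -0.050, against 0.98 at 4 h.

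Spleen and marrow differed in their 7-day response for 43.5% of genes, 18.9% higher and 24.6% lower in spleen. For the same 5 lists the log2 change was higher in spleen for every measured member. In marrow their medians were 0.43 (CFU-E), 0.22 (replication), 0.25 (mitosis), 0.37 (haem) and 0.52 (membrane), with 5, 7, 0, 8 and 7 genes called higher, beside 6.41% of all genes. Epor changed by 2.49 in spleen and 0.50 in marrow (difference 1.995 ± 0.16 SE, limma adjusted p = 3.23e-09). Besides Mageb16, Apol8, Epb42 and Kel, Sowaha differed most (3.53).

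B cell genes were lower in both organs. The list median was -1.54 in spleen and -1.22 in marrow, all 12 genes were lower in each (6.36% of all genes in marrow), and the difference passed the test for 2. Cd79a changed by -1.82 in spleen and -1.85 in marrow, and the difference of 0.035 did not pass (limma adjusted p = 0.925), which does not show that they are equal. B cell precursor genes had a median of -0.0087 in spleen and -1.20 in marrow, where all 7 were lower. In spleen 3 of the 7 lay above the probe-set median, with a median of -1.24, so the value over all 7 is no measure of a lack of change.

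T cell genes had a median of -1.35 in spleen and -0.18 in marrow, and the difference passed for 11 of 12. NK cell genes were at -1.06 and -0.036, with a difference towards lower in spleen for 8 of 10, and megakaryocyte genes at -1.07 and -0.16, with 11 of 14. The genes that differed most towards lower in spleen were Clec2d (-2.21), Klra8 (-2.20), Thrsp (-1.99), Gzma (-1.96) and Igfbp3 (-1.90). The spleen change of Thrsp was 0.061 with another probe set and, without vehicle replicates 2, 4 and 5, -0.65 (limma adjusted p = 0.273).

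**Figure D5:**
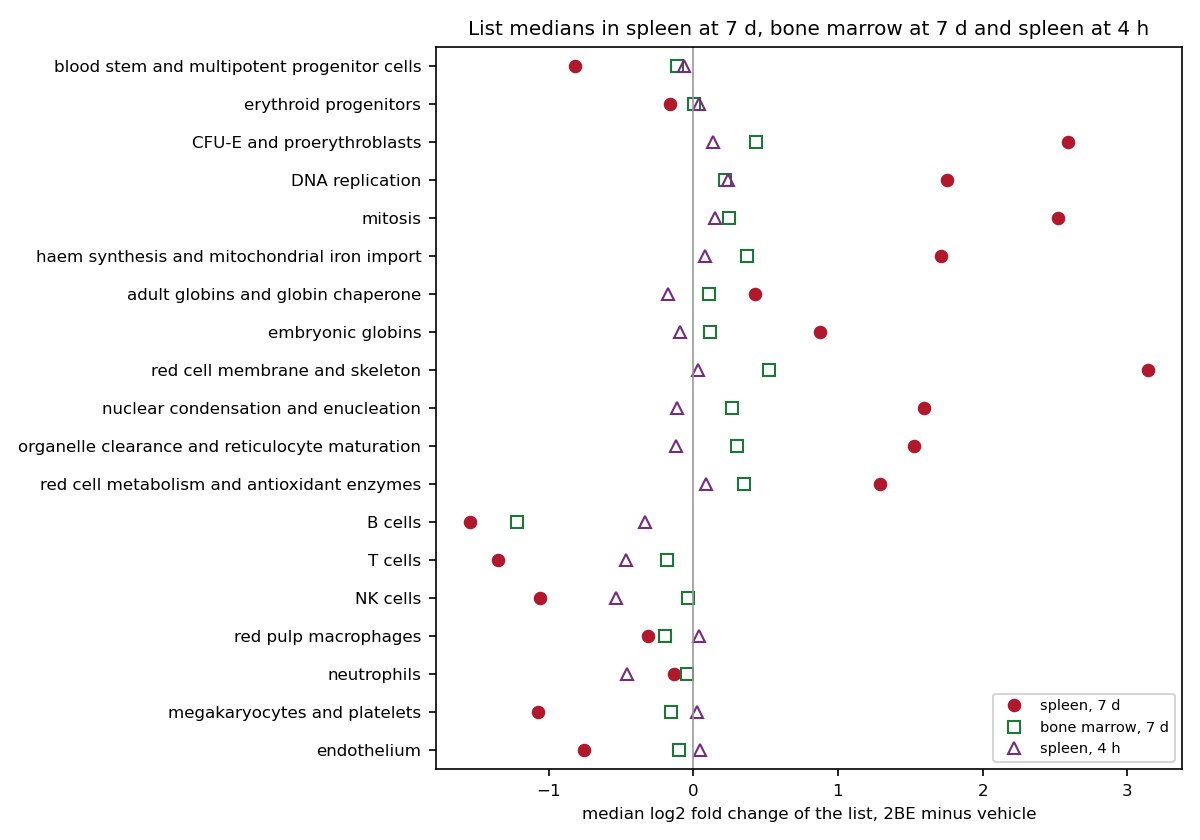
Median log2 fold change (2BE minus vehicle, horizontal axis) of 12 erythroid stage lists and 7 compartment lists in spleen at 7 days (red points), bone marrow at 7 days (green squares) and spleen at 4 h (purple triangles). The erythroid medians of the 7-day spleen lie to the right of both other sets from CFU-E onwards, and B cells are the list with the lowest median in both spleen and marrow at 7 days (-1.54 and -1.22).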

How the data were processed

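Affymetrix mouse arrays with 45101 probe sets were used. The deposited table holds intensities made by the authors with RMA, per the submitters' processing notes; version, background correction and array handling were not given in the sources used here. Values were transformed as log2(intensity + 1), with a pseudocount of 1. Probe sets with 1 gene symbol in the platform annotation (34945 of the 45037 that are not controls) were kept, and each gene was represented by its brightest probe set on average across the 44 arrays, which left 18193 genes. limma 3.58.1 in R 4.3.3 was fitted to the 18 spleen arrays of 4 groups, and to the 20 spleen and marrow arrays for the comparison with marrow, with Benjamini-Hochberg adjustment over all genes, and was tested on simulated data. The number of arrays, 5 per arm, limits the precision. Arrays of equal number were not taken as pairs: their deviations correlated between -0.157 and 0.238. The B cell gene first planned for the comparison between compartments is not reported here, and Ms4a1 was chosen in its place after the data were seen. Named genes were list members, fixed marker genes, the up to 12 largest rises and 12 largest falls with separate arms and a level above 6.80, and the 5 largest differences per direction. Members and lists were chosen with earlier results of these data known. Python 3.11.15 made tables and figures.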

Additional observations from a re-analysis of the deposited data

Results flagged for a closer look

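Of 432 arms tested, 5 arrays for each of 216 named genes, 73 had 1 array set apart from the others by Dixon's criterion (a gap of more than 0.710 of the arm's range), where chance gives about 1 in 20. The genes are not independent of each other. In 49 of them the array was vehicle replicate 1, lower than the rest, and values below are its log2 level with that of the next vehicle array.

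Among CFU-E and progenitor genes this held for Aqp1 (9.97, next 11.13), Car2 (11.25, next 12.86), Hemgn (9.15, next 11.04), Lmo2 (11.14, next 11.32), Nfe2 (8.22, next 9.37) and Tal1 (8.34, next 9.67). Among cell division genes it held for Ccnb2 (8.48, next 9.40), Ccne2 (6.45, next 7.61), Cenpf (7.56, next 8.62), Kif11 (7.05, next 7.79) and Mki67 (10.51, next 11.78). Among haem and globin genes it held for Abcb10 (9.16, next 9.75), Alas2 (12.28, next 13.13), Fech (11.47, next 12.36), Hbb-b2 (11.39, next 12.21), Slc25a37 (11.62, next 12.51) and Urod (10.13, next 10.998).

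For the red cell membrane the genes were Dmtn (7.55, next 9.07), Epb42 (6.33, next 7.43), Icam4 (6.18, next 7.58), Kel (7.64, next 9.22), Rhag (7.67, next 9.48), Rhd (8.07, next 9.86), Slc4a1 (10.20, next 12.23), Sptb (7.15, next 8.18) and Tmod1 (6.83, next 7.86). For enucleation and organelle clearance they were E2f2 (9.22, next 9.81), Fbxo7 (9.13, next 9.36), Foxo3 (10.09, next 10.49), Tent5c (12.23, next 12.85), Tmcc2 (8.98, next 10.97), Trim10 (8.48, next 10.01), Ubac1 (10.03, next 10.88), Ube2o (8.76, next 9.61) and Xpo7 (10.68, next 11.79). For red cell enzymes they were Bpgm (11.88, next 12.55), Gpx1 (13.47, next 13.79), Nt5c3 (9.89, next 10.69) and Prdx2 (11.49, next 12.29). The other genes with vehicle replicate 1 lowest were Apol11b (7.03, next 8.10), Apol8 (5.57, next 7.64), Bcl2l1 (9.70, next 10.46), Gadd45a (7.98, next 8.79), Mageb16 (5.01, next 6.75), Rsad2 (11.42, next 12.73), Samd11 (5.52, next 6.77), Sowaha (4.09, next 5.48), Sox6 (6.25, next 8.41) and Tspan8 (5.54, next 7.46).

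On the 2BE side replicate 5 was the lowest of its arm for Apol8 (10.78, next 11.43), Dmtn (11.65, next 12.24), Gp9 (8.95, next 9.11), Kel (12.27, next 12.64), Nfe2 (11.82, next 12.26), Nqo1 (8.27, next 8.52), Ppox (11.64, next 11.94), Samd11 (9.93, next 10.48), Sox6 (11.33, next 11.79), Tspan8 (10.53, next 10.96) and Ubac1 (13.07, next 13.34). 2BE replicate 1 was the lowest for Cd163 (8.96, next 9.63) and Pim1 (10.49, next 10.70). 2BE replicate 2 was the highest for Rhag (12.93, next 12.69). 2BE replicate 2 was the lowest for Cd3e (8.96, next 9.57), Cd3g (7.10, next 8.58) and Gbp2 (7.28, next 8.24). 2BE replicate 4 was the lowest for Acta2 (10.37, next 10.68). 2BE replicate 5 was the highest for Cd5l (11.41, next 10.44) and Rpl37 (9.76, next 9.26). Vehicle replicate 1 was the highest for Cd5l (11.17, next 10.46). Vehicle replicate 2 was the highest for Cd28 (9.35, next 9.21). Vehicle replicate 2 was the lowest for Ccr2 (9.34, next 9.70). Vehicle replicate 3 was the lowest for Rps27l (11.33, next 11.44).

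The responses at 7 days and at 4 h in the spleen differed by limma for 9326 genes, with the named ones higher at 7 days being Apol8 (4.38), Apol11b (4.10), Epb42 (4.09), Mageb16 (3.91) and Samd11 (3.83) and lower Egr1 (-4.38), Akap12 (-3.78), Ccn2 (-3.74), Phlda1 (-3.61) and Sdc4 (-3.27), as differences of log2 fold changes. The responses of spleen and marrow at 7 days differed for 7905 genes, with Sowaha (3.53), Mageb16 (3.49), Apol8 (3.35), Epb42 (3.18) and Kel (3.12) higher in spleen and Clec2d (-2.21), Klra8 (-2.20), Thrsp (-1.99), Gzma (-1.96) and Igfbp3 (-1.90) lower. The spleen change behind the Thrsp value was 0.061 with another probe set and, without vehicle replicates 2, 4 and 5, -0.65 (limma adjusted p = 0.273).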

How the results depend on the processing

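The number of genes called, 11712, was between 10656 and 12435 when single arrays were left out, 12974 with array weights, 11607 with the 10 arrays fitted alone, 10839 after a further quantile normalization and 10647 with a filter on low values. Leaving out single arrays gave 8551 to 10480 genes for the difference from 4 h and 7204 to 9409 for that from marrow. Of 197 named genes called, 183 were called in all 20 alternatives, and 10 that were not called passed in at least 1. The calls of Adipoq, Cd163, Fabp4, Gata2, Gfi1, Hba-a2, Igfbp5, Kitl, Prss2, Shh, Siglec1, Socs2, Sod1 and Thrsp were lost in at least 1, and the causes were not tested.

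The sign turned for Adipoq without vehicle replicates 2, 4 and 5 (0.088), an alternative chosen after seeing the data, and with another probe set for Cd8a (-0.996) and Thrsp (0.061). Without those 3 arrays the medians were 2.00 for haem synthesis and -0.46 for red pulp macrophages. Vehicle replicate 1, the lowest of its arm for the haem list, remains in that alternative. There, higher calls became 1 for germinal centre B cells, 0 for CD4 and regulatory T cells and 0 for marginal zone macrophages. Lower calls became 0 for granulocyte progenitors. After quantile normalization the medians were -0.037 for erythroid progenitors and -0.76 for plasmacytoid dendritic cells, and 2 genes of conventional dendritic cells were higher. With the filter on low values the medians were 0.65 for adult globins, -0.086 for B cell precursors and -0.67 for CD4 and regulatory T cells. Over members above the probe-set median they were 0.88, -1.24, -0.85 and, for stroma, -0.83. With a pseudocount of 16 the CD4 list was at -0.40, and with another probe set the CD8 list was at -1.23 with 0 higher. With array weights 1 B cell precursor gene was higher and 1 neutrophil gene lower. With the 10 arrays alone 5 granulocyte progenitor genes were higher and 1 mast cell gene lower, and 0 marginal zone macrophage genes were higher, as with trend and robust variances (0).

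Leaving out single arrays gave 0 to 1 higher genes for B cell precursors, plasmacytoid dendritic cells and marginal zone macrophages, and a median of -0.90 to -0.70 for conventional dendritic cells. The replicate block, which the numbers do not bear out as a pairing (1 of 5 2BE arrays correlated best with its own number), gave 11809 genes called, 0 higher marginal zone macrophage genes and 1 lower mast cell gene. For the comparison with Ms4a1 the block gave 0 genes, because its smallest possible p is 0.0625, and single arrays left out gave 10 to 14.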

Other observations

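The named genes of the respiratory chain list held 1 large rise outside the range of the rest: Cox6b2, an isoform of a complex IV subunit known from testis, had 10.67, 10.60, 10.20, 10.49 and 10.29 on the 2BE arrays, against 7.63, 8.30, 8.24, 8.51 and 8.17 on the vehicle arrays (log2 fold change 2.28 ± 0.25 SE, adjusted p = 5.11e-07 by limma). Its arms did not overlap. Among ribosomal protein genes Rpl37 (-0.97 ± 0.12) and Rps4l (-0.80 ± 0.12) were lowest and Rps27l (0.39 ± 0.10) was highest. Among proteasome subunits Psmd9 (1.13 ± 0.16) and Psmd5 (0.97 ± 0.12), which help assemble the regulatory particle, were highest.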
